A study of Mus musculus with 6 samples.

Results

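The 10 genes described here are used as markers of the cells that line blood vessels and of the seals between those cells: Pecam1, Cdh5, Cldn5, Kdr, Flt1, Tek, Tie1, Plvap, Emcn and Mfsd2a. They were taken by symbol from the 38926 gene symbols counted in each library, and all 10 had enough reads in both groups to be tested. Dorsal root ganglia, which hold the cell bodies of sensory neurons with their glia, vessels and connective tissue, were taken at lumbar levels 3, 4 and 5 on the side of the treated paws. The vincristine group was 3 pools from female wild type C57BL/6 mice aged 8 to 10 weeks that had been given the drug into the paw to a cumulative 40 µg by the labels (10 µg by the file naming); the vehicle group was 3 pools from the same strain, sex and age given vehicle alone. Each pool held ganglia of 4 animals, so a value is an average over animals and vessels of every size. The sources used here do not give the interval between the last dose and collection. Vincristine binds tubulin and is used in cancer chemotherapy, with peripheral neuropathy as a known side effect.

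Endothelial cells are joined by adherens junctions, built on VE-cadherin, and by tight junctions, whose main endothelial claudin is claudin-5. Vessel growth and maintenance run through receptors for vascular endothelial growth factor and through the Tie receptors, which bind angiopoietins. In sensory ganglia the vessels around the cell bodies are known to be more permeable than those of brain or of the nerve trunk, and PLVAP, the protein that spans the diaphragms of fenestrae and caveolae, marks permeable endothelium. MFSD2A, a lipid transporter, is known from brain vessels, where it limits vesicular transport across the endothelium. In RNA from whole ganglia, fewer endothelial cells and less RNA per cell cannot be told apart.

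Libraries held 12374331, 19406150 and 26346304 reads in genes in vincristine replicates 1, 2 and 3, and 17967934 to 19917055 in the vehicle replicates. Vincristine replicate 1 stood apart from the other 5 libraries on the first principal component of log2 CPM (55% of the variance), with the lowest neuron and the highest blood cell marker levels. Values are given as CPM, which is reads scaled by library size and the TMM factor.

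None of the 10 genes differed between vincristine and vehicle ganglia past the threshold. By edgeR's quasi-likelihood test, 0 of the 10 passed an adjusted p of 0.05, where 0.359% of the 16706 genes tested did (0.293% higher and 0.0658% lower). DESeq2 also called 0 of the 10, against 3.41% of all genes tested, and 0 of the 10 were at an unadjusted edgeR p under 0.05, against 11.4% of all. The log2 fold changes ran between -0.16 for Tek and 0.25 for Cldn5, with 8 of 10 above 0 and a median of 0.02; over all genes tested 49.3% were above 0, the median was -0.003 and 64.9% were no farther from 0 than the farthest of the 10. The 95% intervals reach a fold of at most 1.69 upward and 0.612 downward for Plvap, the widest of the 10, and for Flt1, at the narrow end, they run from a fold of 0.859 to 1.29. Each gene had between 260 and 1826 reads in a library, for which counting error alone is 6.20% to 2.34%, beside coefficients of variation of 8.98% to 43.0% between vincristine pools and 4.08% to 18.9% between vehicle pools.

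**Figure D1:**
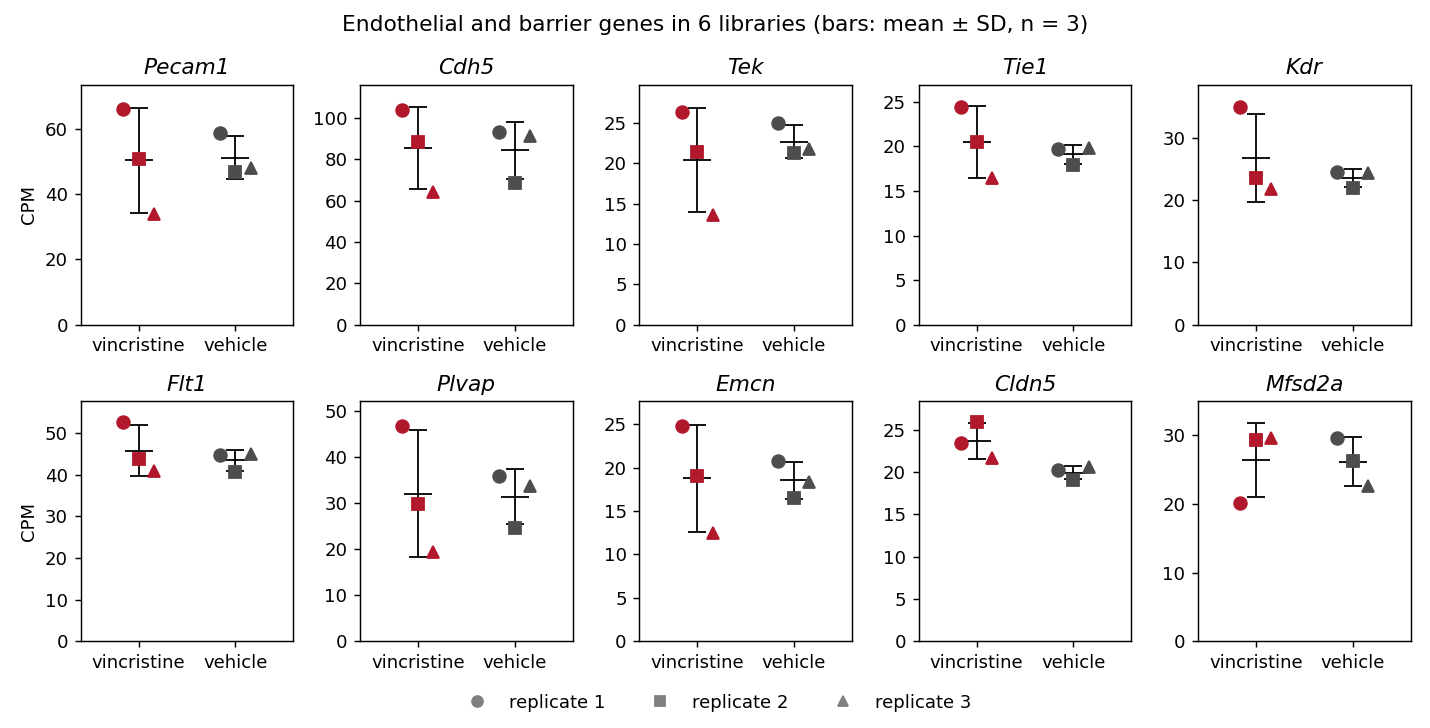
Counts per total scaled to CPM (vertical axes) of each gene in the 3 vincristine libraries (red, left) and the 3 vehicle libraries (grey, right), with marker shape for the replicate number and bars for the mean ± SD. For 8 of the 10 genes vincristine replicate 1 was the highest library, and the groups overlapped for every gene but Cldn5.

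Neither adhesion gene passed the test. Cdh5, which encodes VE-cadherin, was at 104, 88.3 and 64.3 CPM in the 3 vincristine libraries, against 93.3, 68.7 and 91.3 CPM in the 3 vehicle libraries. The vincristine libraries held the highest and the lowest value, and the groups overlapped (log2 fold change 0.02 ± 0.20 SE, edgeR adjusted p = 0.985). Cdh5 lies on chromosome 8 (GRCm38) from 104101625 to 104144511, where a gene on the opposite strand, Gm29682, overlaps it (the sources used here do not say if counting used strand). Pecam1, an adhesion molecule of endothelium that leukocytes and platelets also carry, was at 66.0, 50.8 and 34.0 CPM after vincristine, against 58.7, 46.6 and 48.1 CPM after vehicle. Again 1 vincristine library was above and 1 below every vehicle library (log2 fold change -0.03 ± 0.24 SE, edgeR adjusted p = 0.976).

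Of the 10 genes 1, Cldn5, had groups that did not overlap, which is near the share over all genes tested given next. The tight junction claudin was at 23.5, 25.9 and 21.7 CPM in vincristine libraries, against 20.3, 19.0 and 20.5 CPM in vehicle libraries. All 3 vincristine values were above all 3 vehicle values, which was so for 11.5% of all genes tested (21% did not overlap in either direction), and the means were 23.7 ± 2.13 CPM in vincristine and 19.9 ± 0.814 CPM in vehicle libraries (SD, n = 3 each). The difference was 0.25 ± 0.11 log2 units (SE), a fold of 1.19 with a 95% interval of 0.988 to 1.42; it had the smallest p of the 10 genes and did not pass (edgeR adjusted p = 0.469). Under the 13 alternatives run its log2 fold change was between 0.18 and 0.31, with adjusted p between 0.345 and 0.915. These reuse the same libraries, whose groups did not overlap, so the constant sign is no further support. Mfsd2a, the lipid transporter, was at 20.1, 29.3 and 29.6 CPM after vincristine, against 29.6, 26.3 and 22.6 CPM after vehicle, and the groups overlapped (log2 fold change 0.02 ± 0.18 SE, edgeR adjusted p = 0.984). For this gene vincristine replicate 1 was the lowest of the 6 libraries.

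The growth factor receptors overlapped between groups as well. Kdr encodes VEGFR2, the main signalling receptor for VEGF-A; it was at 34.8, 23.6 and 21.7 CPM in vincristine libraries, against 24.4, 21.9 and 24.3 CPM in vehicle libraries. Vincristine replicate 1 stood above the other 5 libraries, which lay close together (log2 fold change 0.18 ± 0.19 SE, edgeR adjusted p = 0.754). Flt1 encodes VEGFR1, which binds VEGF-A tightly and has a soluble form that acts as a decoy; it was at 52.7, 43.8 and 40.8 CPM in vincristine libraries, against 44.8, 40.5 and 45.0 CPM in vehicle libraries. The vincristine libraries again held the highest value (log2 fold change 0.07 ± 0.12 SE, edgeR adjusted p = 0.861). Tek encodes the angiopoietin receptor Tie2 and was at 26.3, 21.4 and 13.6 CPM after vincristine, against 25.0, 21.2 and 21.8 CPM after vehicle. The third vincristine library was the low one (log2 fold change -0.16 ± 0.23 SE, edgeR adjusted p = 0.831). Tie1, the related receptor that modulates Tie2 signalling, was at 24.5, 20.5 and 16.4 CPM after vincristine, against 19.7, 17.9 and 19.8 CPM after vehicle, so that vincristine libraries were both the highest and the lowest (log2 fold change 0.09 ± 0.16 SE, edgeR adjusted p = 0.863).

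The 2 largest spreads over the vincristine libraries, as SD of log2 CPM, were those of Plvap (0.63) and Emcn (0.50). Plvap was at 46.8, 29.9 and 19.5 CPM in vincristine libraries, against 35.9, 24.7 and 33.7 CPM in vehicle libraries. The vincristine values spanned more than the whole vehicle range, with a coefficient of variation of 43.0% after vincristine and 18.9% after vehicle (log2 fold change 0.02 ± 0.31 SE, edgeR adjusted p = 0.988). Plvap lies on chromosome 8 from 71497765 to 71511752 and overlaps Gtpbp3 on the opposite strand, so the same limit on strand applies. Emcn encodes endomucin, a sialomucin of venous and capillary endothelium, and was at 24.9, 19.0 and 12.5 CPM after vincristine, against 20.8, 16.5 and 18.3 CPM after vehicle. Its groups had nearly the same mean, 18.8 ± 6.19 CPM after vincristine and 18.5 ± 2.14 CPM after vehicle (SD, n = 3 each; log2 fold change 0.01 ± 0.24 SE, edgeR adjusted p = 0.994).

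The other 8 genes are protein-coding too and lie on GRCm38 (GENCODE M21) as follows. Cldn5 is on chromosome 16 from 18776847 to 18778262, Pecam1 on chromosome 11 from 106654217 to 106750628 and Emcn on chromosome 3 from 137341067 to 137432185. Kdr, from 75932827 to 75978458, and Flt1, from 147561604 to 147726011, are on chromosome 5. Tek, from 94739289 to 94874976, Tie1, from 118471191 to 118490061, and Mfsd2a, from 122946850 to 122961188, are on chromosome 4.

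**Figure D2:**
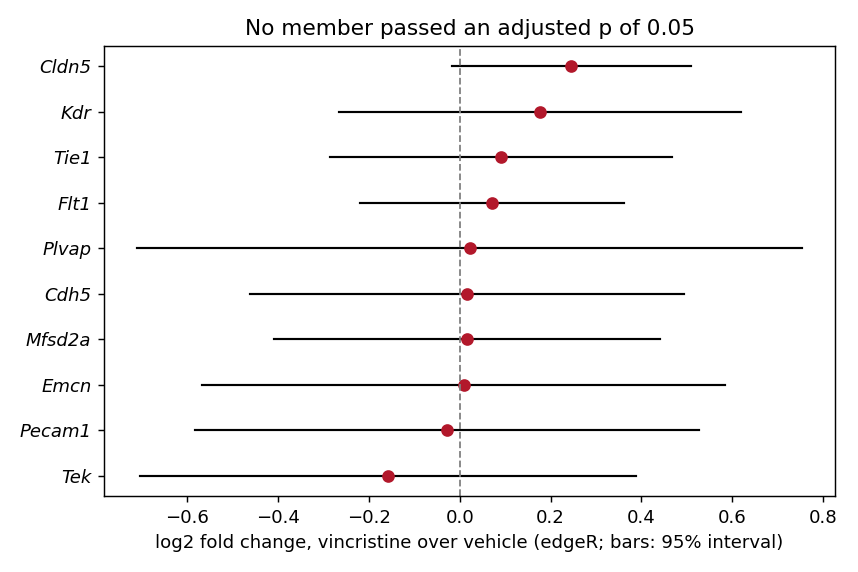
Log2 fold change of each gene, vincristine over vehicle, from the edgeR fit over all genes (points), with its 95% interval (lines); the dashed line marks no difference. Every interval takes in 0, the Cldn5 interval only by its lower end at -0.02.

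Levels of different genes can be compared once divided by transcript length, here the union of exons in GENCODE M21. On this scale Cdh5 led with 20.3 ± 4.74 CPM per kilobase in vincristine and 20.1 ± 3.25 in vehicle libraries (SD, n = 3 each). Plvap followed in vehicle libraries with 15.8 ± 2.99 and was at 16.2 ± 6.94 after vincristine. Cldn5 was at 16.7 ± 1.502 after vincristine and 14.1 ± 0.575 after vehicle, and Mfsd2a was at 11.7 ± 2.40 after vincristine and 11.6 ± 1.57 after vehicle. These 4 genes and Pecam1, at 8.07 ± 2.58 after vincristine and 8.21 ± 1.06 after vehicle, were above the median of tested genes, which was 5.32 CPM per kilobase. The 4 receptors and Emcn were below it. Tek was at 4.34 ± 1.36 in vincristine and 4.81 ± 0.431 in vehicle libraries, and Tie1 at 4.16 ± 0.818 in vincristine and 3.89 ± 0.215 in vehicle libraries. Emcn was at 3.47 ± 1.14 after vincristine and 3.43 ± 0.396 after vehicle, Flt1 at 3.39 ± 0.457 after vincristine and 3.22 ± 0.188 after vehicle, and Kdr, the lowest, at 2.96 ± 0.787 after vincristine and 2.61 ± 0.158 after vehicle. Among neighbours in the vehicle order, Cdh5 and Plvap, Plvap and Cldn5, Tie1 and Emcn, and Emcn and Flt1 overlapped across the 3 vehicle libraries, and the other 5 neighbouring pairs did not. Of the same 9 pairs after vincristine, each overlapped except Cldn5 and Mfsd2a. The order depends on the gene model: with the longest coding transcript as the length, a choice made after seeing the data, Cdh5, Plvap and Pecam1 led at 21.1, 15.8 and 14.9 CPM per kilobase of vehicle libraries, and Kdr stayed last at 3.97.

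**Figure D3:**
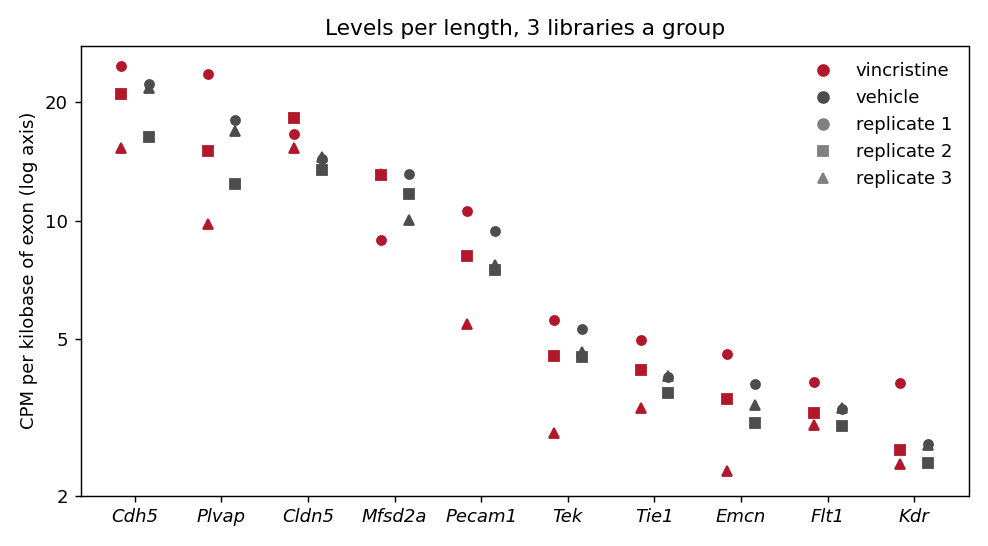
Level of each gene per kilobase of exon (log axis) in the 3 vincristine libraries (red) and 3 vehicle libraries (grey), ordered by the vehicle mean, with marker shape for the replicate number. The vincristine libraries were farther apart than the vehicle libraries for each gene.

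The vincristine pools differed among themselves more than the vehicle pools did. The SD of log2 CPM was larger over the vincristine than over the vehicle libraries for 10 of 10 genes, which was so for 70.9% of all genes tested. The median SD of the 10 genes was 0.36 over vincristine and 0.15 over vehicle libraries, and that of all genes tested was 0.245 over vincristine and 0.15 over vehicle libraries. Against the vehicle mean, the median of the 10 genes was 0.33, 0.03 and -0.30 log2 units in vincristine replicates 1, 2 and 3, and 0.15, -0.10 and 0.04 in vehicle replicates 1, 2 and 3. Vincristine replicate 1 held the highest value of the 6 libraries for 8 of the genes and replicate 3 the lowest for 7, while the median over all tested genes was between -0.009 and 0.021 in every library. The direction of the comparison changed with these libraries. Without vincristine replicate 1, 8 of the 10 log2 fold changes were below 0, with a median of -0.10, and Cldn5 and Mfsd2a were above 0; without vincristine replicate 3, 9 of 10 were above 0, with a median of 0.21. By edgeR 0 of the 10 passed an adjusted p of 0.05 in either case, with 0 genes at an unadjusted p under 0.05 without replicate 1 and 1 gene, Cldn5 (adjusted p = 0.345), without replicate 3.

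**Figure D4:**
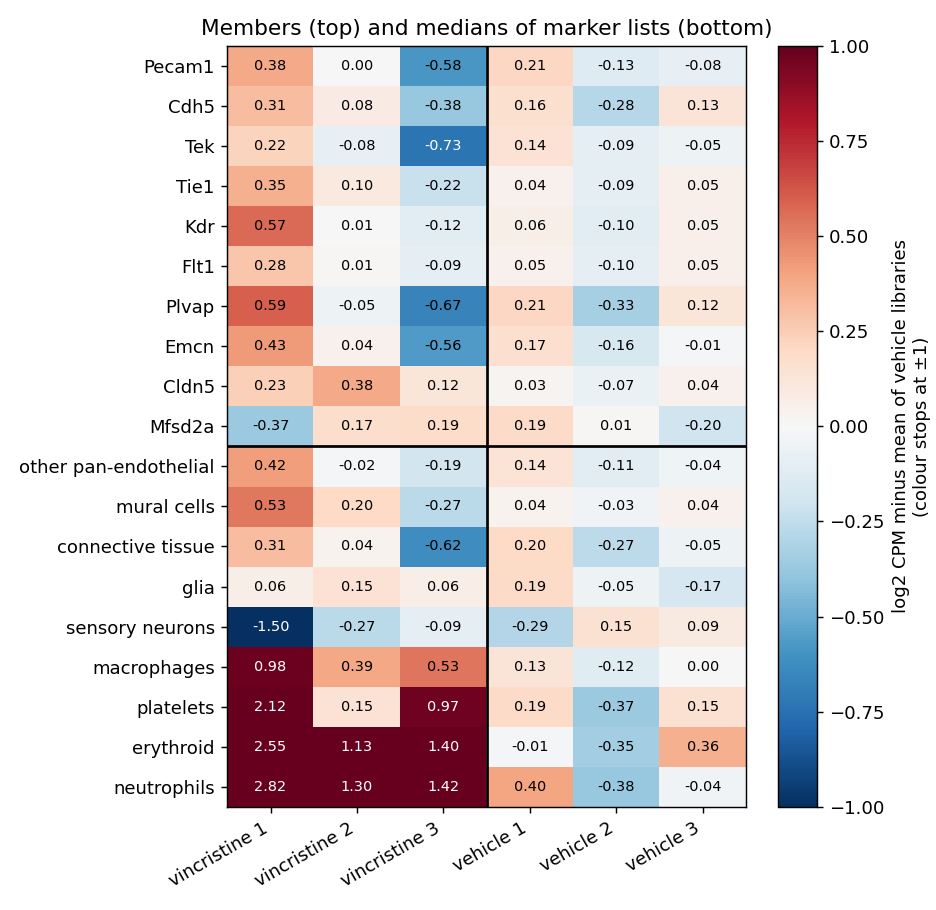
Distance in log2 CPM from the vehicle mean for each of the 10 genes (above the line) and the median of the same quantity for marker lists of other vessel genes and other cells (below it), in the 3 vincristine libraries (left) and 3 vehicle libraries (right); colour stops at 1 in either direction. Most endothelial rows were high in vincristine replicate 1 and low in replicate 3, beside neuron markers at -1.497 in replicate 1.

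Across the 6 libraries 8 of the genes ran together, and Cldn5 and Mfsd2a ran neither with them nor with each other. Pairwise Pearson r of log2 CPM among the 8 genes other than Cldn5 and Mfsd2a was between 0.64 and 0.99 (28 pairs, n = 6 libraries, given as a description; the points share pools, depth and scaling). Cldn5 had r between 0.05 and 0.49 with those 8 genes, and Mfsd2a had r between -0.78 and -0.01 with the other 9, the -0.01 being with Cldn5. With the medians of sensory neuron and of glial markers Mfsd2a had r of 0.58 and 0.55, and Cldn5 of -0.50 and 0.46. With the neutrophil, erythroid, macrophage and platelet medians Cldn5 had r of 0.72, 0.71, 0.67 and 0.44, and Mfsd2a between -0.54 and -0.34. The tested genes most like the mean of the 10 were Arf2 and Metrn (r = 0.995 each), Ddr2, Itgbl1, Yes1 and Lamb2 (lowest r = 0.993, n = 6 libraries), chosen from 12824 candidates with a mean of at least 5 CPM. Of the candidates 546 had r of at least 0.9, which is 4.26%. Ddr2 is a collagen receptor and Lamb2 a laminin chain of basement membranes. Ddr2 was at 212, 170 and 114 CPM in vincristine libraries, against 176, 131 and 162 CPM in vehicle libraries.

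The promoter windows are shown for 2 of the genes that ran together, Tie1 and Emcn, which both hold marked letters. They are also shown for the 2 genes that did not, Cldn5 and Mfsd2a. The windows are RefSeq sequences of GRCm38.p6, from 250 bases before to 50 bases after the RefSeq start, read 5′ to 3′ on the gene's strand. For Tie1 that start lies inside the GENCODE M21 span given above, so most of its window is within that span. Capitals mark AGGAAG on either strand, 1 of the sequences that ETS factors bind. ETS factors are known regulators of endothelial genes. Tie1 is at chr4:118489800-118490099 on the minus strand, Emcn at chr3:137340828-137341127 on the plus strand, Cldn5 at chr16:18776597-18776896 on the plus strand and Mfsd2a at chr4:122961139-122961438 on the minus strand.
Tie1: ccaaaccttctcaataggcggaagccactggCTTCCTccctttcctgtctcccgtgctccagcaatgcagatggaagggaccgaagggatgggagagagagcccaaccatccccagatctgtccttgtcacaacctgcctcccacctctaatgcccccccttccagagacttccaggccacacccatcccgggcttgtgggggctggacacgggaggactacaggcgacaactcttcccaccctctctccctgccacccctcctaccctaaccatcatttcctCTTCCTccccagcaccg
Emcn: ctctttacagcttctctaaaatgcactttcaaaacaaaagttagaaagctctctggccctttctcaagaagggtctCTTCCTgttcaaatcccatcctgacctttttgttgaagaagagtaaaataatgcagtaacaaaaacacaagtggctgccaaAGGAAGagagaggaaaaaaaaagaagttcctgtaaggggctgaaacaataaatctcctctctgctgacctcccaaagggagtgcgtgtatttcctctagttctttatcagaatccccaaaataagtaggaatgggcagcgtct
Cldn5: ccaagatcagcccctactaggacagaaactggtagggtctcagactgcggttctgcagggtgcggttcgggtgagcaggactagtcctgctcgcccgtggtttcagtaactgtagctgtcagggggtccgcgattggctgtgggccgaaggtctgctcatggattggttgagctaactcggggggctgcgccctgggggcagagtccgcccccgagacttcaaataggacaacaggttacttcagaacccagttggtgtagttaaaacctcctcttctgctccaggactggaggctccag
Mfsd2a: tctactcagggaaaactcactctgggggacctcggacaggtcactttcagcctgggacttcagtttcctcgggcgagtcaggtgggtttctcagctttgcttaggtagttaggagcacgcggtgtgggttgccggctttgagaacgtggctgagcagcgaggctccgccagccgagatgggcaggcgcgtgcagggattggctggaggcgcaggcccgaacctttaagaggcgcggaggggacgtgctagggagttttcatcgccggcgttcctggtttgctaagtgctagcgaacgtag
Tie1 and Emcn each held 2 matches and Cldn5 and Mfsd2a 0 in these windows. Of the 7 genes with a window in the table, 3 held a match (Flt1, Tie1 and Emcn, 2 each) and Kdr and Tek, which also ran with them, held 0. That is 3 of the 5 windows from genes that ran together and 0 of the 2 others. Of all 32851 windows, 35.4% held at least 1 match and 8.62% held 2 or more. Pecam1, Cdh5 and Plvap had no window. The genes were grouped on these same libraries, and a link between the grouping and the matches was not tested. A GATA core, GATAAG on either strand, was in the Tek window, in 1 of the 7 genes and in 7.44% of all windows. A match in these letters is a description and does not show binding. A window with 0 matches can still hold other sequences that ETS factors bind, which were not searched for.

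Ratios of reads within a library need no scaling factor and set the endothelial genes against each other. The ratio of Tie1 to Tek was 0.929, 0.961 and 1.21 in the vincristine libraries, against 0.787, 0.845 and 0.911 in the vehicle libraries. All 3 vincristine ratios were above all 3 vehicle ratios, a log2 difference of 0.28, and the exact permutation p was 0.1, two-sided, the smallest that 3 libraries against 3 allow (0.4 adjusted over the 4 ratios compared). Without each library in turn the difference was between 0.16 and 0.35. Its sign could not change there, because the groups did not overlap. The ratio of Plvap to Cldn5, of a permeable-vessel gene to a tight junction gene, was 1.997, 1.155 and 0.9004 in vincristine libraries, against 1.77, 1.30 and 1.64 in vehicle libraries. It overlapped between groups, with the highest and the 2 lowest of the 6 values among the vincristine libraries (log2 difference -0.29, exact permutation p = 0.6). The ratio of Flt1 to Kdr was 1.51, 1.86 and 1.88 in vincristine libraries, against 1.84, 1.85 and 1.85 in vehicle libraries, so that 5 of the 6 libraries lay close together and vincristine replicate 1 was lower (log2 difference -0.09, exact permutation p = 1). The ratio of Mfsd2a to Cldn5 was 0.858, 1.13 and 1.37 in vincristine libraries, against 1.46, 1.38 and 1.10 in vehicle libraries, and the groups overlapped (log2 difference -0.25, exact permutation p = 0.4).

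**Figure D5:**
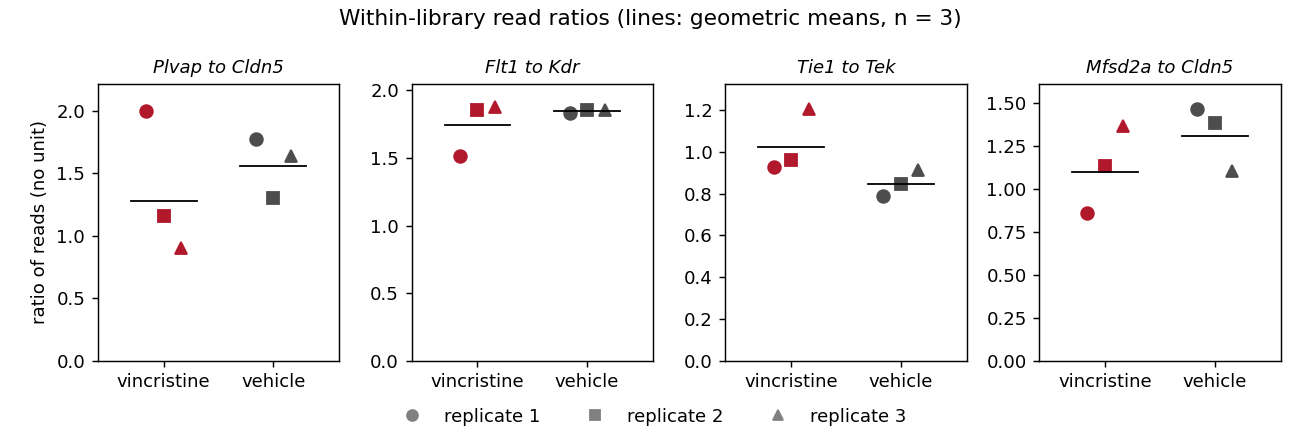
Ratio of the reads of 2 genes in the same library (no unit) for the 4 pairs compared, in vincristine (red, left) and vehicle libraries (grey, right); lines are geometric means. For Tie1 to Tek alone the groups did not overlap.

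Further endothelial genes were also not called by edgeR. For this list and those below, the shares over all genes tested were 11.4% at an unadjusted p under 0.05 in either direction and 3.41% called by DESeq2. Of 20 further pan-endothelial genes, all tested, 0 were called by edgeR, 3 were higher at an unadjusted p under 0.05, and the median log2 fold change was 0.11, or -0.11 without vincristine replicate 1. DESeq2 called 1 of them, Tal1, a transcription factor of blood and endothelial lineages that red cell precursors also express. Tal1 was at 62.5, 26.4 and 27.2 CPM in vincristine libraries, against 13.6, 8.81 and 15.7 CPM in vehicle libraries (log2 fold change 1.599 ± 0.39 SE, edgeR adjusted p = 0.196, DESeq2 adjusted p = 0.00313), and its log2 fold change was 1.078 without vincristine replicate 1. Beside it, the median log2 fold change of 11 erythroid markers was 1.76. All 11 had non-overlapping groups, higher after vincristine, which was so for 11.5% of all genes tested. The part of erythroid cells in the Tal1 values was not tested. Sox18 and Sox17, transcription factors of endothelial development, had log2 fold changes of 0.62 ± 0.17 and 0.58 ± 0.24 (SE; edgeR adjusted p = 0.238 and 0.424). Sox18 was at 9.06, 7.68 and 6.86 CPM after vincristine, against 5.43, 4.58 and 5.25 CPM after vehicle, without overlap. In this list 2 genes were higher without overlap and 1, Gpr116, lower, beside 11.5% and 9.51% of all genes tested. Gpr116 (-0.16, edgeR adjusted p = 0.597) was named after its values were seen.

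The ligands of these receptors did not pass either. Of 12 VEGF and angiopoietin ligands and co-receptors 0 were called by edgeR or DESeq2 and 0 were at an unadjusted p under 0.05, with a median log2 fold change of 0.01. Vegfa, the ligand of Kdr and Flt1, was at 33.4, 34.2 and 33.4 CPM in vincristine libraries, against 29.8, 32.5 and 39.1 CPM in vehicle libraries. The vincristine values lay inside the vehicle range (log2 fold change -0.004 ± 0.12 SE, 95% interval -0.29 to 0.28, edgeR adjusted p = 0.994). Angpt1, the agonist of Tie2, was at 39.7, 24.3 and 15.3 CPM after vincristine, against 28.85, 19.85 and 28.6 CPM after vehicle, and so had the same high and low vincristine libraries as Tek (log2 fold change 0.03 ± 0.34 SE, edgeR adjusted p = 0.985, and -0.385 without vincristine replicate 1). Angpt2, a context-dependent antagonist of Tie2, was at 20.9, 22.0 and 19.6 CPM in vincristine libraries, against 22.0, 19.4 and 19.3 CPM in vehicle libraries, with overlap (log2 fold change 0.04 ± 0.11 SE, edgeR adjusted p = 0.922), and the smallest p of the list were those of Angptl4 (0.52), Flt4 (0.47, or 0.19 without vincristine replicate 1) and Vegfb (-0.15).

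Among barrier genes 1 rose past the threshold. Of 18 transporters and Wnt targets known from brain endothelium, all tested, 1 was called by edgeR and by DESeq2, beside 0.293% of all genes called higher by edgeR, and the median log2 fold change was 0.16, or -0.01 without vincristine replicate 1. That gene was Slc7a5, the LAT1 subunit that carries large neutral amino acids, which is found in many cell types besides brain endothelium. It was at 86.7, 81.4 and 94.5 CPM in vincristine libraries, against 44.0, 48.6 and 37.6 CPM in vehicle libraries, without overlap. The difference was 1.01 ± 0.13 log2 units (SE, edgeR adjusted p = 0.0308). Without vincristine replicate 1, 2 or 3 the edgeR adjusted p was 0.00839, 0.106 and 0.126. Without vehicle replicate 1, 2 or 3 it was 0.237, 0.129 and 0.190, in fits that called 0 genes over the whole table. The log2 fold changes of these fits were between 0.92 and 1.12. With the other scalings and filters, limma-voom, the replicate block and DESeq2 the gene passed. Slc7a5 also has an overlapping gene on its opposite strand. Slc2a1, the glucose transporter of barrier endothelium and of the perineurium, was at 117, 114 and 100.4 CPM after vincristine, against 91.6, 82.8 and 89.6 CPM after vehicle. The groups did not overlap and the gene did not pass (log2 fold change 0.33 ± 0.11 SE, edgeR adjusted p = 0.330). In this list 3 genes were higher without overlap and 1 lower, beside 11.5% and 9.51% of all genes tested. The lower one was Abcg2 (-0.12, edgeR adjusted p = 0.678), named after its values were seen. Abcb1a, the efflux pump P-glycoprotein, was at 104, 82.8 and 67.5 CPM after vincristine, against 98.2, 79.0 and 70.2 CPM after vehicle, with overlap (log2 fold change 0.04 ± 0.19 SE, edgeR adjusted p = 0.959, and -0.135 without vincristine replicate 1).

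Junction genes other than Cdh5 and Cldn5 numbered 18, of which 17 were tested, 0 were called and 1 was lower at an unadjusted p under 0.05, with a median log2 fold change of -0.02, or -0.11 without vincristine replicate 1. That gene was Cldn12, another claudin, at 31.9, 33.5 and 31.4 CPM in vincristine libraries, against 42.2, 36.6 and 37.6 CPM in vehicle libraries (log2 fold change -0.27 ± 0.10 SE, edgeR adjusted p = 0.382). All 3 vincristine values lay below the vehicle values, which was so for 9.51% of all genes tested. The next smallest p in this list were those of Lsr (0.33, or 0.11 without vincristine replicate 1) and Ctnnd1 (0.16). Of 12 genes of leukocyte adhesion and endothelial activation 11 were tested, 0 called and 2 higher at an unadjusted p under 0.05, with a median log2 fold change of 0.21, with and without vincristine replicate 1. Vcam1 was at 66.2, 31.5 and 44.0 CPM in vincristine libraries, against 38.3, 26.5 and 33.6 CPM in vehicle libraries, and Icam1 at 30.2, 15.6 and 12.4 CPM in vincristine libraries, against 17.4, 15.0 and 17.4 CPM in vehicle libraries. The groups overlapped, and vincristine replicate 1 was the highest library for both. Icam1 and Vcam1, which leukocytes bind on activated endothelium, had log2 fold changes of 0.21 ± 0.31 and 0.52 ± 0.27 (SE; edgeR adjusted p = 0.833 and 0.529), and without vincristine replicate 1 of -0.25 and 0.21. In 3 of these genes every vincristine value was above every vehicle value, and in 1 below, beside 11.5% and 9.51% of all genes tested. The 3 were Procr (0.82), Edn1 (0.99) and Selp (0.78), none of which passed (edgeR adjusted p = 0.314, 0.336 and 0.457), with log2 fold changes of 0.78, 0.71 and 0.33 without vincristine replicate 1. The lower one was Cd34 (-0.24, edgeR adjusted p = 0.596), a sialomucin, named after its values were seen.

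Markers of vessel segments and of neighbouring vessel cells were counted in the same way. Of 16 arterial, capillary and venous markers 15 were tested, 0 were called, 3 were higher at an unadjusted p under 0.05 and the median was 0.06, or 0.075 without vincristine replicate 1; the 3 were Bmx (1.07), Cd36 (0.84) and the arterial gene Sema3g (0.42), at edgeR adjusted p of 0.273, 0.410 and 0.428. Without vincristine replicate 1 their log2 fold changes were 0.67 for Bmx, 0.365 for Cd36 and 0.48 for Sema3g. Of 12 mural cell markers 0 were called and 0 were at an unadjusted p under 0.05, with a median of 0.17, or -0.03 without vincristine replicate 1. The smallest p were those of Higd1b (0.79), Notch3 (0.18, or 0.11 without that library) and Mcam (0.27, or 0.505 without it), and Pdgfrb, the pericyte receptor, was at -0.03 ± 0.16 (SE, edgeR adjusted p = 0.961), or -0.15 without it. The mural median was 0.53, 0.20 and -0.27 in vincristine replicates 1, 2 and 3, against 0.04, -0.03 and 0.04 in vehicle replicates 1, 2 and 3. Of 9 lymphatic and sinusoidal markers 0 were called and 2, Fcgr2b (0.67) and Stab1 (0.45), were higher at an unadjusted p under 0.05, both also genes of macrophages, ahead of Mmrn1 (0.83). Without vincristine replicate 1 the log2 fold changes were 0.48 for Fcgr2b, 0.27 for Stab1 and 0.09 for Mmrn1, and the list median was 0.09, against 0.45 with it.

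Markers of other cells also differed between libraries, not all in the order of the 10 genes, and their part in the values above was not tested. Against the vehicle mean, the glial median was 0.06, 0.15 and 0.06 in vincristine replicates 1, 2 and 3. The platelet median was 2.12, 0.15 and 0.97 in the same libraries. All 14 sensory neuron and all 12 glial markers were expressed enough to be tested, so the labelled tissue carried its markers, with median log2 fold changes of -0.47 and 0.11, or -0.19 and 0.065 without vincristine replicate 1. By edgeR 0 in either list were called, with 1 and 0 at an unadjusted p under 0.05; the neuron genes with the smallest p were Calca (-0.75), which encodes the peptide CGRP, Nefl (-0.79), a neurofilament, and Snap25 (-0.41), a synaptic fusion protein, at -0.48, -0.48 and -0.22 without vincristine replicate 1. The glial ones were S100b (-0.26), Kcnj10 (0.34, or 0.16 without it) and Sox10 (0.21). In vincristine replicate 1 the median of the neuron markers was -1.497, against -0.27 and -0.09 in replicates 2 and 3, and their summed level was 4684 to 12260 CPM in vincristine and 10350 to 13460 CPM in vehicle libraries. Blood cell markers were highest in that library: the sums over 14 neutrophil markers were 8190, 2701 and 3089 CPM in vincristine libraries, against 1491, 860 and 1093 CPM in vehicle libraries, and those over 11 platelet markers 342, 114 and 187 CPM in vincristine libraries, against 118, 74.3 and 122 CPM in vehicle libraries. The list medians were 1.97 for neutrophils, 1.32 for platelets and 0.66 for 12 macrophage markers, or 1.29, 0.67 and 0.49 without vincristine replicate 1, with 0 called by edgeR in each, 13, 8 and 10 higher at an unadjusted p under 0.05, and 11, 1 and 6 called by DESeq2. The smallest p among these were those of Csf3r (1.81), Ltf (2.18) and Mmp8 (2.10) for neutrophils, Gp1bb (0.83), Itga2b (0.98) and Tubb1 (1.42) for platelets, and Itgam (1.63), C1qc (0.71) and Cx3cr1 (0.72) for macrophages, given as log2 fold changes. Without vincristine replicate 1 edgeR called Csf3r, Ltf, Mmp8 and Itgam (adjusted p = 0.0175, 0.00934, 0.00951 and 0.0124, log2 fold changes 1.42, 1.58, 1.52 and 1.17), and Itga2b and Tubb1 were at 0.505 and 0.75. Of 11 erythroid markers 0 were called by edgeR, 11 were higher at an unadjusted p under 0.05 and 11 were called by DESeq2, among them the red cell membrane genes Slc4a1 (1.95) and Kel (2.07), which edgeR called without vincristine replicate 1 (adjusted p = 0.00780 and 0.0228). Connective tissue markers, a list of 12, had 0 genes called and 0 at an unadjusted p under 0.05, a median log2 fold change of -0.105, or -0.33 without vincristine replicate 1, and their smallest p at Krt19 (0.45), Cldn1 (-0.20) and Slc22a6 (-0.34), the last 2 at -0.31 and -0.635 without that library. Their median against the vehicle mean was 0.31, 0.04 and -0.62 in vincristine replicates 1, 2 and 3, against 0.20, -0.27 and -0.05 in vehicle replicates 1, 2 and 3, and over the 6 libraries it had r between 0.74 (Kdr) and 0.99 (Emcn) with the 8 genes that ran together, 0.29 with Cldn5 and -0.45 with Mfsd2a. The neuron median had r between -0.95 (Kdr) and -0.48 (Tek) with the same 8 genes, with Flt1 at -0.90. Kdr and Flt1 thus had r farther from 0 with neuron than with connective tissue markers. The mural median had r between 0.79 (Tek) and 0.98 (Tie1) with the 8 genes, with Kdr and Flt1 at 0.90 each. Kdr and Flt1 also had r between 0.66 and 0.81 with the neutrophil, erythroid, macrophage and platelet medians, and Cldn5 between 0.44 and 0.72. These r are descriptions, over libraries that share depth and scaling. Bone markers, a list of 12, had 0 genes called and 1, Runx2 (0.53), at an unadjusted p under 0.05, ahead of Ibsp (0.74) and Phex (-0.51). Without vincristine replicate 1 these were at 0.30, 0.31 and -0.985. The bone list had a median of 0.02, or -0.22 without that library, and sums of 1031 to 2346 CPM in vincristine and 1114 to 3093 CPM in vehicle libraries. DESeq2 called 0 genes in each list for which no count of its calls is given. In all of these lists 0 markers were at 0 reads over the 6 libraries.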

How the data were processed

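The authors deposited 1 table of whole-number counts per library, by gene symbol and not normalized; STAR, SAMtools and HTSeq with mm10 (GRCm38) are named in the submitters' processing notes, and per the labels' protocols the libraries were stranded total RNA. The sources used here do not give tool versions, annotation or strand setting. The counter's summary lines were left out; of all tallied alignments they held 31.1% to 40.5% not unique, 14.8% to 24.8% outside genes and 0.253% to 0.331% ambiguous. Depth was 12374331 to 26346304 reads in genes. Counts were fitted over the whole table with edgeR 4.0.16 (filterByExpr, minimum count 10; TMM; robust estimateDisp and glmQLFit; glmQLFTest, two-sided, Benjamini-Hochberg over 16706 genes, threshold 0.05), with 4 residual degrees of freedom; the edgeR step was tested on simulated data. CPM uses TMM-scaled library sizes. The SE is the log2 fold change divided by the square root of F, and the intervals at 95% use it. DESeq2 1.42.0 and limma 3.58.1 (voom), in R 4.3.3, other scalings and filters, a replicate block and leaving out each library were alternatives. Ratios were tested by exact permutation over libraries. Gene positions and exon lengths come from GENCODE M21. The members and lists were chosen with earlier results of these data known. Named were all members, of each other list the called genes or else up to 3 with the smallest p, 8 genes whatever their values and the 6 most like the members' mean; 1 gene that this rule names is not reported here. Within each group, no pair of libraries had counts that agreed within sampling noise.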

Additional observations from a re-analysis of the deposited data

How the results depend on the processing

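Under the 13 alternatives 0 of the 10 endothelial genes passed an adjusted p of 0.05, and the median of their log2 fold changes lay between -0.10 and 0.21 when 1 library was left out. The number of genes called over the whole table was 60, and 99 with no filter on low counts, 569 by DESeq2, 261 with the replicate block and 0 to 346 when 1 library was left out (346, 6 and 18 without vincristine replicate 1, 2 and 3); the cause was not tested. With no vehicle replicate 1, 2 or 3 edgeR called 0 genes, with 1462, 1063 and 1409 at an unadjusted p under 0.05. Whether the replicate numbers pair the samples could not be told. Same-numbered libraries had correlations of their deviations of 0.408, 0.232 and -0.091. Vincristine replicates 1 and 2 each correlated best with the same-numbered vehicle library, and vincristine replicate 3 with vehicle replicate 2 (0.457). With that block edgeR called the blood cell genes Csf3r, Ltf, Mmp8, Itgam, C1qc, Slc4a1 and Kel (adjusted p between 0.00795 and 0.0394). Small log2 fold changes changed sign. With no filter Emcn was at -0.007 and Mfsd2a at -0.000; by limma-voom Plvap was at -0.081, Emcn at -0.084, Angpt1 at -0.105 and Vegfa at 0.004; with the replicate block Plvap was at -0.04, Emcn at -0.031, Angpt1 at -0.044 and Vegfa at 0.003; with at least 1 CPM in 3 libraries Vegfa was at 0.002. With 1 library left out, log2 fold changes that changed sign ranged over -0.274 to 0.195 for Pecam1, -0.147 to 0.189 for Cdh5, -0.056 to 0.313 for Kdr, -0.04 to 0.151 for Flt1, -0.381 to 0.073 for Tek, -0.055 to 0.232 for Tie1, -0.352 to 0.291 for Plvap, -0.243 to 0.242 for Emcn, -0.083 to 0.173 for Mfsd2a, -0.089 to 0.112 for Vegfa, -0.385 to 0.315 for Angpt1, -0.135 to 0.183 for Abcb1a, -0.249 to 0.462 for Icam1, -0.153 to 0.1 for Pdgfrb, -0.635 to 0.095 for Slc22a6, and that of the Flt1 to Kdr ratio over -0.141 to 0.016. Each member had at least 260 reads in every library. Animals were pooled, so variation between animals was not measured, and p-values measure the spread between pools.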
